A study of Gallus gallus with 32 samples.

Results

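The avian beta-defensins of chicken liver are described here: all 13 rows of the deposited expression table whose gene identifier begins with AvBD and a digit (AvBD1 and AvBD3 to AvBD14), of 25619 rows in all. The rows were taken by name, but the family was chosen with earlier results of these data known. The high level of AvBD9 was among those results. The livers came from broilers of the Arbor Acres line, chickens bred for meat, which received added dietary arginine at 4 levels, namely a control at 0 g/kg, and 1.8, 9 and 18 g/kg, with 8 libraries at each level and 32 in all. The design text of the series counts more liver samples than the 32 libraries described here. The labels give no age, sex, strain beyond the broiler line, or number of birds behind a library. The values are TPM, a transcript abundance divided by transcript length and scaled to the same sum in every library, and a gene's TPM therefore tells how large a part of the measured messenger RNA it takes up. The table holds no read counts, so the depth of each library is unknown and no counting interval is given. The 18 listed hepatocyte markers summed to between 109453 and 205852 TPM per library, 16 of them averaged 1 TPM or more, CPS1 and RBP4 averaged 0.569 and 0.0125 TPM, and albumin (ALB), the main plasma protein made by hepatocytes, averaged 83000 TPM.

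Beta-defensins are small, cationic, cysteine-rich peptides of innate immunity that damage the membranes of bacteria and fungi and can attract leukocytes. Birds carry no alpha-defensins, and their beta-defensin genes lie side by side in a single cluster. AvBD1, AvBD2 and AvBD7 are known as granule peptides of heterophils, the avian counterpart of neutrophils, and of bone marrow, whereas AvBD8 to AvBD13 are known mainly from liver, kidney and epithelia. Arginine is an essential amino acid in birds, because their urea cycle is incomplete, and it is the substrate of nitric oxide synthase in macrophages.

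The cluster was read from the reference annotation (assembly GRCg7b), which was used for names and gene order only, since the build of the deposited table is not given in the sources used here. The order ran AvBD13, AvBD12, AvBD11, AvBD10, AvBD9, AvBD8, AvBD7, AvBD6, DEFB4A, AvBD1, AvBD3, AvBD5, AvBD4 and AvBD14, with 4 transfer RNA genes between AvBD11 and AvBD10. AvBD2 carries the symbol DEFB4A in that annotation, so it fell outside the naming rule. It is given here beside the members and was chosen after its values were seen. The nearest annotated genes were the microRNA genes MIR6690 and MIR6702 on the AvBD13 side, both listed at 0, and on the AvBD14 side XKR5, with a mean of 0.108 TPM, and TRAM2, with a mean of 7.06 TPM. The defensin genes arose by duplication, and how reads that match more than 1 of them were shared is not given in the sources used here.

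AvBD9 was the most abundant defensin in 32 of 32 libraries and one of the most abundant transcripts of the liver. Its level was 10177 ± 6103 TPM (SD, n = 32), which placed it at rank 12 of the table by mean. That put it between LBFABP, a liver fatty acid-binding protein, at 10679 ± 2684 TPM, and FTH1, the heavy chain of the iron store ferritin, at 9709 ± 2654 TPM. APOC3, at 10787 ± 2321 TPM, and APOA2, at 9691 ± 2397 TPM, both apolipoproteins of circulating lipoproteins, stood just above and below these. Within single libraries its rank ran from 4 to 62, and it made up 0.202% to 3.21% of all TPM, with a median of 0.875%. Of the TPM summed over the 13 defensin rows, a sum that leaves out DEFB4A, it took 54.8% to 94.8%, with a median of 89.6%. The lowest of these shares came from 9 g/kg replicate 4, which is described further on, and the next lowest was 75.9%.

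Among transcripts of that abundance AvBD9 was uneven between libraries of one diet. Its SD within diets was 0.84 on the log2(TPM + 1) scale, larger than that of 24 of the 25 genes whose mean lay within 1 log2 unit of its own, whose median SD was 0.43. The lowest library, 1.8 g/kg replicate 6, held 2015 TPM and the highest, 18 g/kg replicate 1, held 32083 TPM, a range of 15.9-fold. Control libraries ran from 2612 through a median of 8970 to 17123 TPM. Libraries at 1.8 g/kg ran from 2015 through 5649 to 17993 TPM. Libraries at 9 g/kg ran from 4357 through 11484 to 21639 TPM, and those at 18 g/kg from 4260 through 10128 to 32083 TPM. All 4 ranges overlapped, and without its highest library the 18 g/kg group reached 13656 TPM.

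**Figure D1:**
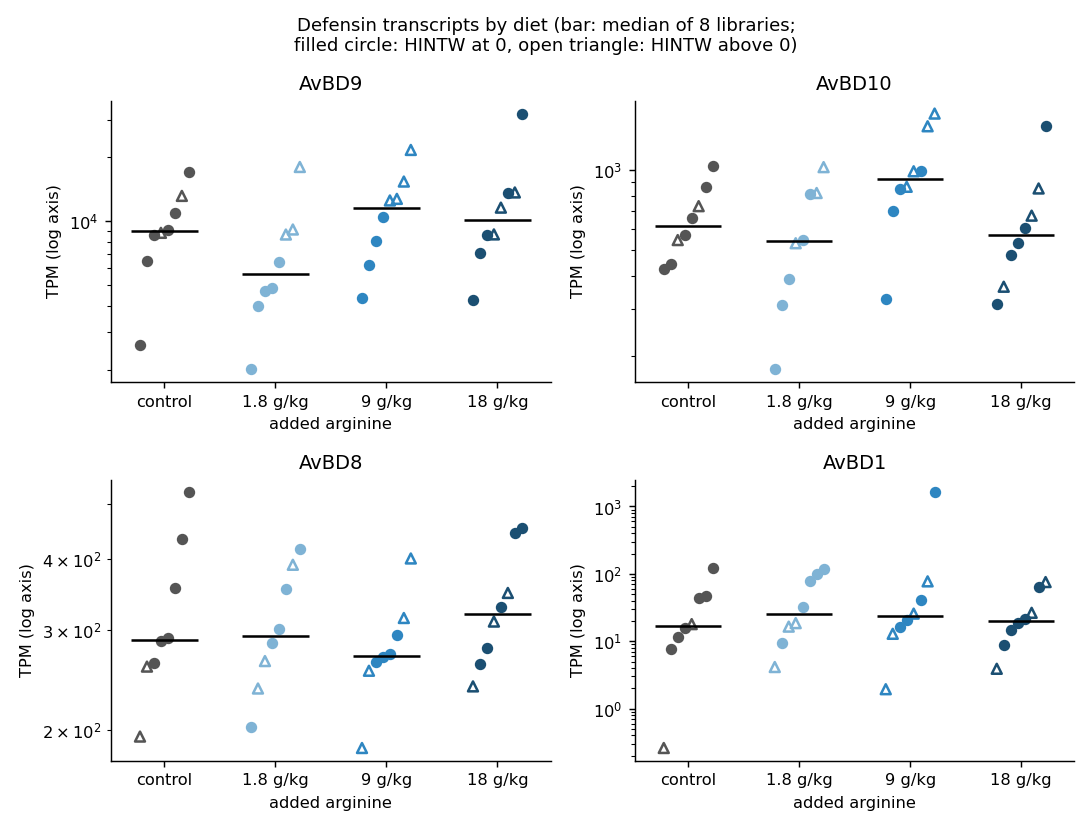
TPM (log axis) of AvBD9, AvBD10, AvBD8 and AvBD1 in each library by added arginine, with a bar at the median of 8 libraries. Open triangles are the 12 libraries in which the W-linked transcript HINTW was above 0 TPM and filled circles the 20 at 0. The diets overlap in every panel, AvBD8 varies least, and a single 9 g/kg library stands far above the rest for AvBD1.

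The genes on either side of AvBD9 in the cluster came next in abundance, at a small part of its level. AvBD10 averaged 720 ± 351 TPM (SD, n = 32) and ranked 189, and AvBD9 exceeded it by 5.9- to 37.5-fold in single libraries, with a median of 12.6-fold. Control libraries of AvBD10 ran from 423 through a median of 615 to 1036 TPM, and those at 1.8 g/kg from 178 through 539 to 1028 TPM. Those at 9 g/kg ran from 327 through 929 to 1637 TPM, and those at 18 g/kg from 313 through 569 to 1475 TPM. The 9 g/kg group had the highest median, and its range covered the whole of the control range.

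AvBD8 averaged 312 ± 80.9 TPM (SD, n = 32) and ranked 364. It was the steadiest of the 8 tested defensins, those averaging 1 TPM or more, with a range of 186 to 524 TPM over all libraries and an SD within diets of 0.37 on the log2(TPM + 1) scale. That spread was larger than in 57.4% of genes of like level, which put it near the middle. Its medians were 289, 293, 270 and 320 TPM from control to the highest arginine level, and the 4 ranges overlapped.

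AvBD13, the first gene in the cluster order, was scarce but was listed above 0 in all 32 libraries, with a mean of 3.86 ± 4.10 TPM. Its libraries ran from 0.28 through 2.19 to 5.04 TPM in control and from 1.38 through 2.99 to 7.37 TPM at 1.8 g/kg. They ran from 1.18 through 4.31 to 8.19 TPM at 9 g/kg and from 1.23 through 3.64 to 23.9 TPM at 18 g/kg. The 23.9 TPM belonged to 18 g/kg replicate 1, the library that was also highest for AvBD9, and the next value in that group was 4.71 TPM. AvBD12 was listed at 0 in all 32 libraries. AvBD11, known from the vitelline membrane of the egg, was above 0 in 5 libraries and reached at most 0.15 TPM.

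The genes from AvBD7 to AvBD4 are taken as a second set, with medians below those of AvBD8, AvBD9 and AvBD10. Level did not part them from AvBD13, whose median was 3.145 TPM. AvBD1 had a median of 19.9 TPM, AvBD7 of 20.2 TPM, AvBD6 of 2.76 TPM and AvBD4 of 0.59 TPM. Their SDs within diets were 1.95, 2.01, 1.59 and 1.13 on the log2(TPM + 1) scale, against 0.84 or less for the other tested defensins. They were larger than those of 99.6%, 99.7%, 98.6% and 95.3% of genes of like level. That share did not set them apart, as it was 96% for AvBD9, 93% for AvBD13 and 90.5% for AvBD10. DEFB4A lay between them in the cluster and had a median of 41.6 TPM. AvBD3 and AvBD5, which sit beyond AvBD1, were above 0 in 13 and 17 libraries, and AvBD14, known mainly from skin, in 15, with means of 0.415, 0.567 and 0.0437 TPM. AvBD3, AvBD5, AvBD11, AvBD12 and AvBD14 fell under the filter of a mean of 1 TPM and were not tested.

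One library, 9 g/kg replicate 4, set the means of this second set. It held 1619 TPM of AvBD1, 1121 TPM of AvBD7, 203 TPM of AvBD6, 41.5 TPM of AvBD4 and 2714 TPM of DEFB4A. The highest values elsewhere in its diet were 77.4 TPM of AvBD1, 45.6 TPM of AvBD7, 12.2 TPM of AvBD6 and 1.54 TPM of AvBD4. AvBD3, at 7.82 TPM, and AvBD5, at 9.88 TPM, were highest there too. With it the mean of AvBD1 was 84.2 TPM and without it 34.7 TPM, and that of AvBD7 was 65.4 and 31.3 TPM. The same library was at the low end for AvBD9, with 4357 TPM, and AvBD10, with 327 TPM, the lowest values of their diet. At the opposite end, control replicate 8 held 0.26 TPM of AvBD1, 0.24 TPM of AvBD7 and 0 TPM of DEFB4A, beside 13156 TPM of AvBD9.

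**Figure D2:**
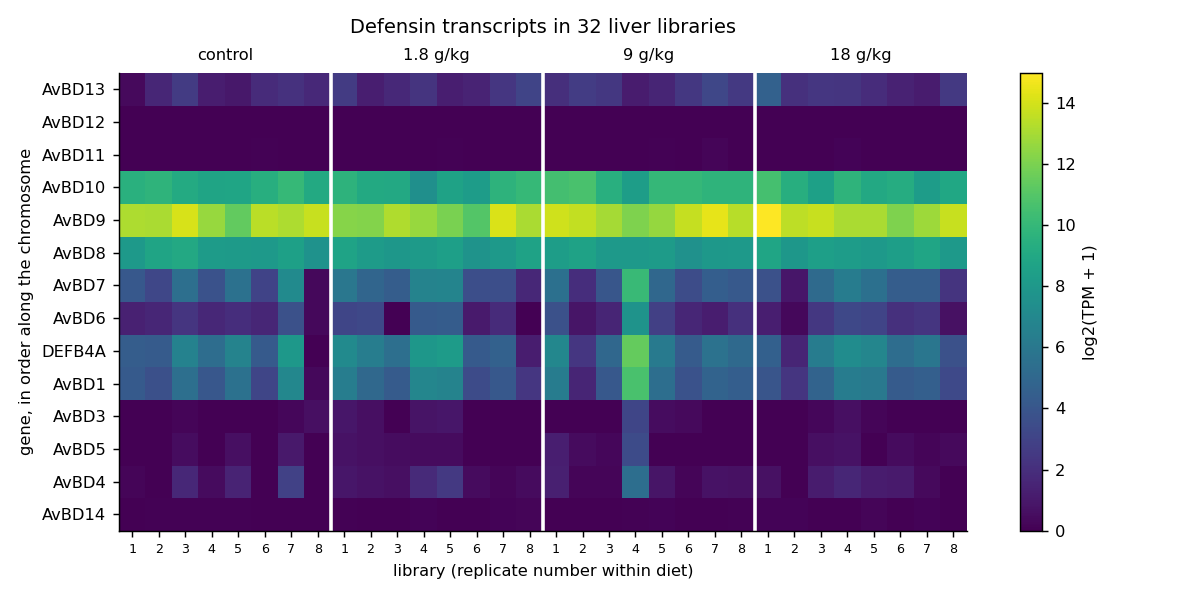
Level of the 13 defensin rows and DEFB4A as log2(TPM + 1) (colour) in 32 libraries (columns, by diet and replicate number), with genes in their order along the chromosome. The row of AvBD9 is bright throughout, AvBD10 and AvBD8 follow, and the block from AvBD7 to AvBD4 brightens in 9 g/kg replicate 4 and darkens in control replicate 8.

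The order of levels was firm at the top and loose below. AvBD9 exceeded AvBD10 in 32 of 32 libraries, AvBD10 exceeded AvBD8 in 30, and AvBD8 exceeded AvBD7 in 31. By median AvBD7 and AvBD1 came next and were not separated beyond their spread, with AvBD1 the higher of the pair in 23 libraries and AvBD7 in 9. AvBD13 and AvBD6 were not separated either, with AvBD6 higher in 17 libraries and AvBD13 in 15. TPM is divided by transcript length, so levels of different genes were set side by side on that scale. How reads matching several defensins were shared is not given, so the order is that of the listed values only.

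The first question of the design was whether added arginine changed these transcripts. No defensin passed the test in any comparison of diets. Differences were fitted with limma on log2(TPM + 1) for the 11339 genes averaging 1 TPM or more, with Benjamini-Hochberg adjustment across all of them. Genes passing at an adjusted p below 0.05 made up 0% of those tested for each arginine level against control, for each pair of levels, for any difference among the 4 diets and for the trend on dose. Genes with an unadjusted p below 0.05 made up 2.34% at 1.8 g/kg, 4.87% at 9 g/kg and 2.44% at 18 g/kg against control, and none of the 8 tested defensins was among them. The counts were 265, 552 and 277 genes. The share was 5.69% between 18 and 9 g/kg and 3.18% for any difference among the diets, again with no defensin among them.

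For AvBD9 the difference from control was −0.51 ± 0.40 at 1.8 g/kg on the log2(TPM + 1) scale (SE; 95% interval −1.32 to 0.30), with 7 of 8 libraries below the control mean. At 9 g/kg it was 0.26 ± 0.40 (−0.55 to 1.07), with 5 of 8 libraries above, and at 18 g/kg 0.30 ± 0.40 (−0.51 to 1.12). The 3 comparisons share the control libraries. A 2-sided exact permutation test of 8 against 8 libraries gave p = 0.263, 0.523 and 0.481, each 0.523 after adjustment over the 3 levels. Without control replicate 5, the control library lowest in AvBD9, the differences were −0.76 at 1.8 g/kg, 0.01 at 9 g/kg and 0.06 at 18 g/kg. Without 1.8 g/kg replicate 6 the difference at 1.8 g/kg was −0.29. With HINTW above 0, a W-linked transcript taken up further on, as a term, the differences were −0.61, 0.06 and 0.20 with rising dose. The intervals extend past 1 log2 unit, a 2-fold change, downward at 1.8 g/kg and upward at 9 and 18 g/kg.

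**Figure D3:**
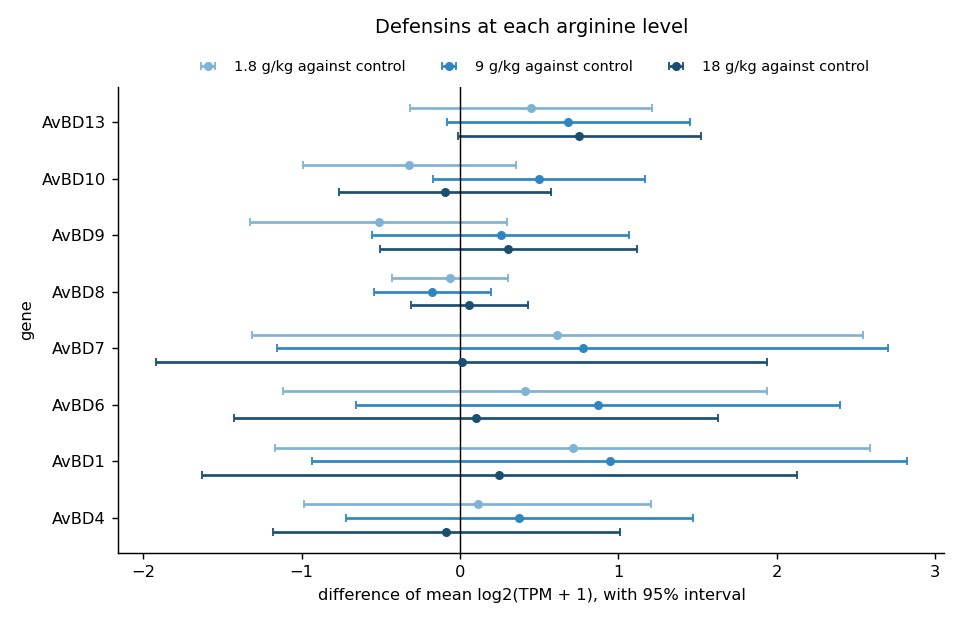
Difference of mean log2(TPM + 1) from control (horizontal axis) with its 95% interval for the 8 tested defensins (vertical axis, in order along the chromosome) at 3 arginine levels, from the limma fit with 8 libraries a diet. Every interval spans 0, and the intervals of AvBD1, AvBD6 and AvBD7 are the widest.

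Between arginine levels, 2 defensin comparisons had an unadjusted p below 0.05. AvBD10 was 0.82 ± 0.33 higher on the log2(TPM + 1) scale at 9 than at 1.8 g/kg (unadjusted p = 0.0187, limma adjusted p = 1), with 7 of 8 libraries above the 1.8 g/kg mean, in a comparison where 2.83% of genes reached an unadjusted p that low. AvBD9 was 0.82 ± 0.40 higher at 18 than at 1.8 g/kg (unadjusted p = 0.0486, limma adjusted p = 1), with 6 of 8 libraries above, where 2.04% of genes did. Neither passed the adjustment, and without 18 g/kg replicate 1 the AvBD9 value was 0.59. AvBD9 differed by 0.05 ± 0.40 between 18 and 9 g/kg, and from −0.18 to 0.23 as single libraries were left out.

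Of the others, AvBD13 had differences from control of 0.45, 0.68 and 0.75 with rising dose, each ± 0.38, and limma adjusted p-values of 0.956 and above. Leaving out 18 g/kg replicate 1 brought its value at that level to 0.42. AvBD8 gave the tightest limits, with differences of −0.06, −0.17 and 0.06, each ± 0.18 on the log2(TPM + 1) scale. For AvBD1 the difference at 9 g/kg was 0.95 ± 0.92 and became 0.15 without 9 g/kg replicate 4, and for AvBD7 0.77 ± 0.95 became 0.02. Those of AvBD6 and AvBD4 went from 0.87 to 0.16 and from 0.37 to −0.23 in the same way. DEFB4A, fitted beside the members, had differences from control of 0.69, 0.91 and 0.23 with rising dose, each ± 1.10, and did not pass. The trend on dose was 0.03 ± 0.02 log2 units per g/kg for AvBD9 and the same to 2 decimals for AvBD13, and neither passed (limma adjusted p = 0.9999 for both, where 2.03% of all genes had an unadjusted p below 0.05). Without 18 g/kg replicate 1 the trends were 0.0209 for AvBD9 and 0.0176 for AvBD13.

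Across the 32 libraries the defensins held a tight set, AvBD1, AvBD4, AvBD6 and AvBD7, with looser relations among the rest. The 6 pairs within AvBD1, AvBD4, AvBD6 and AvBD7 had Spearman rho of 0.77 to 0.988 and Pearson r of 0.869 to 0.981 on log2(TPM + 1), and all 6 passed a permutation test with 100000 resamples, 2-sided, adjusted over 36 relations. For AvBD1 and AvBD7, r was 0.981 and rho 0.988, each with an unadjusted p of 1e-05, the smallest the resamples can give. Leaving out the 2 libraries farthest from the median of AvBD1, control replicate 8 and 9 g/kg replicate 4, left r at 0.968. AvBD1 and DEFB4A had r = 0.973 and rho = 0.985 with the same p, and r = 0.96 without those 2 libraries. With diet means removed the 6 pairs had rho of 0.781 to 0.982, so the relation stood within diets.

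The 16 pairs that join this set with AvBD8, AvBD9, AvBD10 or AvBD13 had rho of −0.363 to 0.395, and none passed. AvBD8 had positive values with the set, of 0.304 to 0.395, and values of −0.0806 with AvBD9, 0.233 with AvBD10 and 0.159 with AvBD13, so it stood with neither side. AvBD9 had negative values with all 4 genes of the set, for example r = −0.35 and rho = −0.363 with AvBD7 (permutation p = 0.0499 and 0.0406, adjusted 0.256 and 0.15 over 17 relations). Over the 12 libraries with HINTW above 0, r was 0.081 with AvBD1, −0.0243 with AvBD4, 0.23 with AvBD6 and 0.0559 with AvBD7, so the sign turned for 3 of the 4. Among AvBD8, AvBD9, AvBD10 and AvBD13, the pair AvBD9 and AvBD13 had r = 0.678 (permutation p = 3e-05, adjusted 0.00051) and rho = 0.647 (adjusted 0.00153). Without 1.8 g/kg replicate 6 and 18 g/kg replicate 1, r was 0.612, and with diet means removed it was 0.724. AvBD9 and its neighbour AvBD10 had r = 0.529 (permutation p = 0.00212, adjusted 0.018), whereas rho was 0.462 (adjusted 0.0748) and r without the same 2 libraries was 0.401. AvBD10 and AvBD13 had r = 0.486 and rho = 0.534 (permutation, adjusted p = 0.0139 and 0.00549), and r without 2 libraries was 0.567. AvBD8 and AvBD9, although adjacent, had r = 0.127 and rho = −0.0806, and neither passed. AvBD13 averaged 3.86 TPM beside 10177 TPM of AvBD9. How reads matching several defensins were shared is not given, and its part in these relations and in those of the tight set was not tested.

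**Figure D4:**
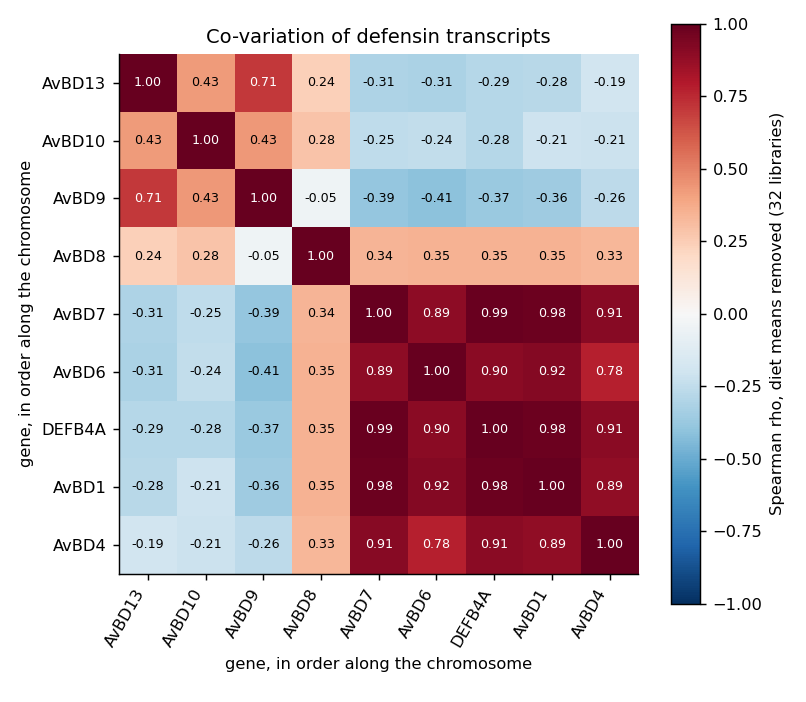
Spearman rho between the 8 tested defensins and DEFB4A over 32 libraries with diet means removed (colour and printed values), with genes in order along the chromosome on both axes. AvBD7, AvBD6, DEFB4A, AvBD1 and AvBD4 form a block of high values, and AvBD9 and AvBD13 stand out among the other genes.

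The summed markers of heterophils moved with AvBD1, AvBD4, AvBD6 and AvBD7. Of 19 listed heterophil symbols, 17 rows were found and none was at 0 in all libraries, and their summed level ran from 85.4 through a median of 194 to 4156 TPM. The 4156 TPM was 9 g/kg replicate 4, and the next highest, 1.8 g/kg replicate 4, held 732 TPM. The sum includes LECT2, CATH1 and CATH2, and LECT2 alone was 1628 TPM in 9 g/kg replicate 4. In 18 g/kg replicate 2 the sum was 249 TPM, above the median, while LECT2 was 0.5 TPM and AvBD1 3.9 TPM. Relations with a sum that leaves out LECT2, CATH1 and CATH2 were not tested. By diet the sum ran from 85.4 to 624 TPM in control, 97.3 to 732 TPM at 1.8 g/kg, 114 to 4156 TPM at 9 g/kg and 123 to 296 TPM at 18 g/kg. The sum had r = 0.796 with AvBD1, 0.888 with AvBD4, 0.823 with AvBD6 and 0.756 with AvBD7 (permutation, unadjusted p = 1e-05 and adjusted p = 3.27e-05 each, with rho of 0.712, 0.704, 0.661 and 0.695). Without the 2 farthest libraries r was 0.655, 0.716, 0.649 and 0.605. Over the 20 libraries with HINTW at 0, r was 0.927, 0.907, 0.883 and 0.903, and over the 12 with HINTW above 0 it was 0.396, 0.64, 0.513 and 0.302. In bulk liver RNA a change in the number of such cells and a change in transcript per cell cannot be told apart. AvBD9 had r = −0.232 and rho = −0.176 with the heterophil sum and r = −0.227 and rho = −0.136 with the hepatocyte sum (permutation, adjusted p = 0.362 or above). None of the 10 cell type marker sums passed with AvBD9. AvBD8 had r = −0.456 with the hepatocyte sum (permutation, adjusted p = 0.025), but rho was −0.392 (adjusted p = 0.0713) and r without 2 libraries was −0.379.

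The genes whose pattern was most like that of AvBD9 were found by Spearman rho over 32 libraries after removing diet means, as a description without a p-value. OAT, the mitochondrial enzyme that turns ornithine, the product of arginine cleavage, into glutamate semialdehyde, came first of the other tested genes with rho = 0.869. TDH, a threonine dehydrogenase, followed with 0.754, GATD3AL1 with 0.717, AvBD13 with 0.708 and PRDX6, a peroxiredoxin that reduces lipid peroxides, with 0.69. AvBD10 came at place 154 with 0.432. At the other end stood the unnamed gene LOC101748371 with −0.797, F2RL2, a protease-activated thrombin receptor, with −0.792, and IL31RA, a cytokine receptor subunit, with −0.719.

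OAT itself ran from 45.2 through a median of 74.9 to 124 TPM in control and from 26.9 through 56.3 to 117 TPM at 1.8 g/kg. It ran from 42.6 through 83.1 to 177 TPM at 9 g/kg and from 46.8 through 67.4 to 172 TPM at 18 g/kg. Its highest library, with 177 TPM, was 9 g/kg replicate 7, which at 21639 TPM was second highest for AvBD9, and 18 g/kg replicate 1 held 172 TPM. Without the 2 libraries farthest from the median of AvBD9, rho without removal of diet means was 0.855 against 0.879 with them. OAT did not pass against control at any arginine level, with differences of −0.44, 0.21 and 0.06, each ± 0.33 on the log2(TPM + 1) scale (limma adjusted p = 0.977 or above).

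**Figure D5:**
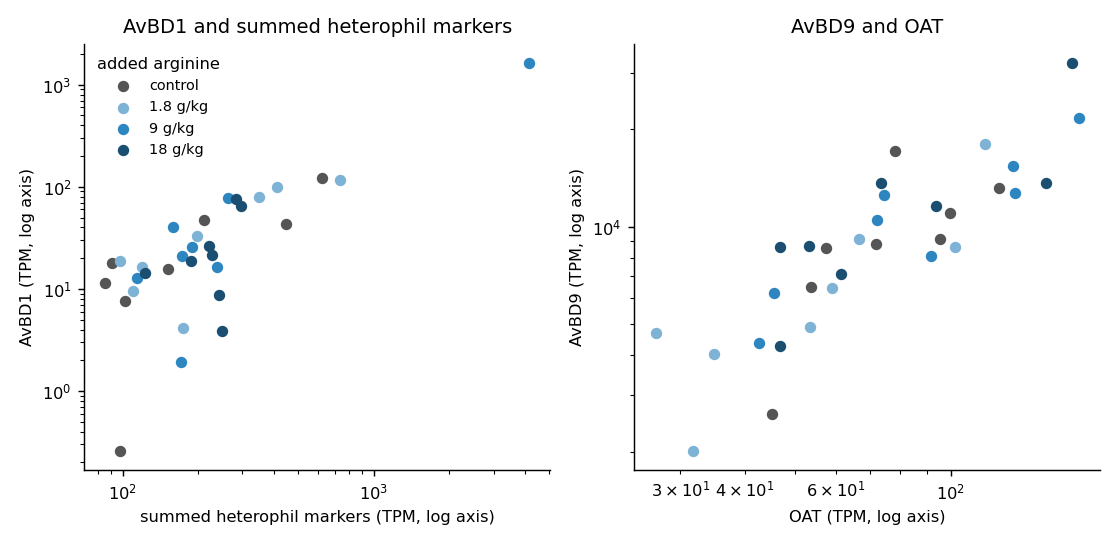
AvBD1 against the summed heterophil markers (left) and AvBD9 against OAT (right), in TPM on log axes, 1 point for each of 32 libraries coloured by added arginine. AvBD1 follows the marker sum with a few low libraries beneath the rest and 9 g/kg replicate 4 far out at the upper right, and AvBD9 is high where OAT is high.

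The other defensins had other partners by the same measure. For AvBD1 they were AvBD7 with rho = 0.982, DEFB4A with 0.981, LECT2, which carries the synonym MIM1 of a heterophil granule protein, with 0.979, and the cathelicidins CATH2 with 0.966 and CATH1 with 0.953. LECT2 ran from 0.15 to 146 TPM outside 9 g/kg replicate 4 and was 1628 TPM in it. LECT2, CATH1 and CATH2 are also part of the summed heterophil markers, so they are not separate observations from that sum. AvBD10 had its highest values with CYP2D6, a cytochrome P450 of drug metabolism, at 0.669, C21orf62 at 0.618 and ENHO at 0.61. AvBD8 had its highest value with SEC61G, a subunit of the channel that passes secreted proteins into the endoplasmic reticulum, at 0.747. MANF, a protein of endoplasmic reticulum stress, followed at 0.733, and TRIM25 at 0.703.

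Sex is not in the labels, but HINTW, a transcript of the W chromosome that only hens carry, was at 0 TPM in 20 libraries and between 20.1 and 37.7 TPM in 12. The 12 comprised 2 control, 3 at 1.8 g/kg, 4 at 9 g/kg and 3 at 18 g/kg libraries, so this difference was unevenly spread over the diets. AvBD9 ran from 8659 through a median of 12631 to 21639 TPM in the 12 libraries and from 2015 through 6812 to 32083 TPM in the 20. The lower end of the range was missing from the 12, and the upper end overlapped. With diet in the model, the 12 libraries were 0.81 ± 0.26 higher on the log2(TPM + 1) scale (limma adjusted p = 0.141), which did not pass. Without 18 g/kg replicate 1 the value was 0.92 and passed (limma adjusted p = 0.0167), and over the other libraries left out in turn it did not pass.

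In the same comparison AvBD1 differed by −1.62 ± 0.63, AvBD7 by −1.64 ± 0.65, AvBD6 by −1.38 ± 0.51 and AvBD10 by 0.48 ± 0.23. DEFB4A, outside the naming rule, differed by −2.17 ± 0.73 (limma adjusted p = 0.17). None passed the adjustment. Of the 8 tested defensins, 5 had an unadjusted p below 0.05 and 0 an adjusted one, against 8.37% and 2.41% of all genes. The 5 share libraries and, for AvBD1, AvBD6 and AvBD7, a common pattern, so they are not separate observations. Heterophil markers summed to 90.6 through 172 to 282 TPM in the 12 libraries and to 85.4 through 219 to 4156 TPM in the 20, and their part in these differences was not tested. With HINTW above 0 as a term, no gene passed in any diet comparison. AvBD9 and AvBD13 had r = 0.775 and rho = 0.689 over the 20 libraries, and r = 0.421 and rho = 0.238 over the 12. AvBD9 and OAT had rho = 0.882 over the 20 and 0.671 over the 12. For TDH the rho with AvBD9 was 0.483 and 0.406. LOC101748371 had −0.672 and −0.0736, F2RL2 −0.72 and −0.154, and IL31RA −0.675 and −0.252, all weaker over the 12. These 4 genes passed the HINTW comparison themselves, with TDH 0.90 ± 0.20 higher in the 12 libraries (limma adjusted p = 0.00519) and the other three 0.78, 0.80 and 0.71 lower (limma adjusted p = 0.000365 or below). AvBD9 and AvBD10 had r = 0.524 over the 20 and 0.11 over the 12.

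Other genes of host defence were described from lists, with the same tests, and none passed in any comparison with control. Of 13 tested genes for other antimicrobial peptides and proteins, 11 were above control at 1.8 g/kg, 12 at 9 g/kg and 10 at 18 g/kg, with medians of 0.30, 0.41 and 0.08 on the log2(TPM + 1) scale, where all tested genes had medians of 0.03, 0.0027 and 0.02. Without 9 g/kg replicate 4 the count at 9 g/kg was 7 of 13 and the median 0.0014. The most abundant of them were LYG2, a goose-type lysozyme, at 289 TPM, and LEAP2, a liver-expressed antimicrobial peptide, at 134 TPM, both far under AvBD9. CATHB1, a cathelicidin best known from the bursa, was at a median of 0 TPM and reached 32.9 TPM in 18 g/kg replicate 1, the library highest for AvBD9 and AvBD13. It is among the 13 tested genes, but its mean of 1.19 TPM met the filter only through that library. Its place in the counts above therefore says nothing about dose.

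Of 34 tested genes of microbe sensing and NF-kB signalling, the upstream route to defensin induction in epithelia, 22, 24 and 16 were above control with rising dose, with medians of 0.07, 0.12 and −0.01. Without 9 g/kg replicate 4 the count at 9 g/kg was 19 of 34 and the median 0.04. TLR3, a sensor of double-stranded RNA, was 5.56 ± 3.80 TPM in control and 2.44 ± 0.559 TPM at 9 g/kg, a difference of −0.78 ± 0.24 (limma adjusted p = 0.787), with 8 of 8 libraries below the control mean. At 1.8 and 18 g/kg its differences were −0.25 and −0.42, with 7 of 8 libraries below that mean at each. IL17RC, a subunit of the interleukin-17 receptor, was 11.9 ± 1.99 TPM in control and 15.1 ± 2.34 TPM at 1.8 g/kg, a difference of 0.32 ± 0.12 (limma adjusted p = 1), with 8 of 8 libraries above the control mean. Its differences were 0.31 at 9 g/kg, with 8 of 8 libraries above, and 0.24 at 18 g/kg, with 7 of 8 above. Neither gene passed at any level. Of the 34, 1 had an unadjusted limma p below 0.05 at 1.8 g/kg and 0 at 18 g/kg. At 9 g/kg 1 higher and 1 lower gene did. The shares of all tested genes were 2.34%, 4.87% and 2.44% with rising dose. TLR3 and IL17RC were named for such p-values and all levels share the control libraries, so their library counts are not separate support. Of 10 tested nuclear receptors and regulators, 6, 5 and 8 were above control with rising dose, with medians of 0.02, 0.02 and 0.05.

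Genes listed as acute phase gave 8, 7 and 7 of 17 tested genes above control, with medians of −0.0018, −0.10 and −0.04. The acute phase list shares AHSG, FGA, FGB, FGG, TF and HPX with the hepatocyte list, and its count is not a measure of inflammation. Heterophil markers gave 14, 14 and 13 of 14 tested genes above control with rising dose, with medians of 0.28, 0.46 and 0.34. At 9 g/kg without replicate 4 the count was 11 of 14 and the median 0.19. The comparisons share the control libraries and 0 of these genes passed, and the list shares CATH1, CATH2 and LECT2 among others with the antimicrobial list.

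Heterophil markers were not alone in this. Macrophage markers gave 14, 14 and 14 of 14 tested genes above control with rising dose, with medians of 0.27, 0.42 and 0.52, and endothelial markers 10, 10 and 10 of 10, with medians of 0.43, 0.52 and 0.35. The counts were 8, 8 and 7 of 9 for T and NK cells, 4, 5 and 5 of 5 for B and plasma cells, 5, 6 and 5 of 6 for thrombocytes and 7, 5 and 3 of 7 for erythrocytes. Without 9 g/kg replicate 4 the thrombocyte count at 9 g/kg was 2 of 6. Cholangiocyte markers gave 2, 2 and 3 of 5 and stellate cell and fibroblast markers 1, 2 and 4 of 9. Through synonyms, the row ALAS1 stood for ALAS2 among the erythrocyte markers. In the same way SH2D6 stood for BLNK among B cell markers and KRT24 for KRT19 among cholangiocyte markers. Hepatocyte markers gave 4, 3 and 3 of 16, with medians of −0.06, −0.09 and −0.10. None of these genes passed, and their part in the defensin values was not tested. All tested genes had medians of 0.03, 0.0027 and 0.02 with rising dose. Genes of a list can vary together, and all levels share the control libraries. The lowest endothelial sum was 33 TPM in control, and 111, 121 and 129 TPM at 1.8, 9 and 18 g/kg. No control library was left out for these counts.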

How the data were processed

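Liver messenger RNA was measured in 32 libraries, 8 for each of 4 arginine levels. Per the labels' protocols, RNA was extracted with TRIzol, selected by its poly(A) tail, made into strand-specific Illumina libraries and sequenced in pairs on a NovaSeq X Plus. The submitters' processing notes name fastp, HISAT2, StringTie and RSEM, without versions or roles. The genome build is not given in the sources used here. The authors deposited 1 table of TPM values with 25619 rows and sums of 998707 to 999281 per library. All its value columns were mapped to a library by name. TPM keeps no depth, and precision is given by the spread between libraries. The labels do not state that libraries of a diet are separate birds, and a p-value here reflects only how far these libraries scatter, which may be technical in part. Every diet held libraries with HINTW at 0 and libraries with it above 0, so the libraries of a diet did not all come from the same bird.

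Values were taken as log2(TPM + 1). Genes averaging 1 TPM or more across libraries, 11339 in number, were fitted with limma 3.58.1 in R 4.3.3 (1 mean per diet, eBayes with trend), with p-values adjusted by the Benjamini-Hochberg method over all of them and a threshold of 0.05. The trend used dose as a number. Whether HINTW was above 0 was added as a term in a separate fit. Permutation tests used SciPy 1.17.1. Correlations between libraries ran from 0.893 to 0.968, and no pair was identical. Of 48 pairs of libraries with the same replicate number in different diets, 18 had deviations from their diet means correlated above 0.1. The median correlation of the 48 pairs was 0.03, against −0.0067 for pairs with other numbers. How many pairs with other numbers were above 0.1 was not counted, so the 18 have no share to be set against. The numbers were not treated as pairing libraries in the reported fits, and whether they do was not settled. The fits were also run on simulated data in which deviations were shuffled separately for each gene. Shuffling in that way keeps neither the relations between genes nor libraries that stand apart, and its outcome is not given here.

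The defensins and the 14 gene lists were chosen with earlier results of these data known. Of 218 list symbols, 203 were found, 21 of them through a synonym. Named besides the defensins were the genes next to the cluster and next to AvBD9 in level, the 5 most and 3 least like AvBD9, and from the lists those with an unadjusted p below 0.05 against control and the 2 most abundant. For brevity only part of the last are printed, and 1 of them is not reported here. Partners of AvBD1, AvBD8 and AvBD10, and LECT2 and CATHB1, were chosen after their values were seen. Alternatives were another pseudocount and filter, median-ratio scaling, the table without mitochondrial genes, a replicate block, limma without the trend, HINTW as a covariate, dose as a rank, and leaving out each library. Protein and promoter sequences were not used here.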

Additional observations from a re-analysis of the deposited data

Results flagged for a closer look

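In 4 of 32 groups of 8 libraries checked for the 8 tested defensins, 1 library stood apart by Dixon's criterion on log2(TPM + 1), in which the gap to the nearest library is divided by the range of the group and compared with a critical value for 8. Chance gives about 5% of groups. Of these, 3 were 9 g/kg replicate 4 in AvBD4 (0.782; 41.5 TPM against 1.54 TPM for the next library), AvBD6 (0.578; 203 against 12.2 TPM) and AvBD7 (0.56; 1121 against 45.6 TPM). These genes vary together, so the 3 are not separate events, and the summed heterophil markers were also highest in that library, at 4156 TPM. The fourth was AvBD13 in 18 g/kg replicate 1 (0.611; 23.9 against 4.71 TPM).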

How the results depend on the processing

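The limits come from the spread between libraries and from TPM, which hides depth and rests on shares. Across the planned and added alternatives, 0 genes were called in any diet comparison, the same as in the reported fits. Of 515 values under settings other than leaving out a library, 507 counted as the same, and of 1232 values without 1 library 1161 did. For a difference this meant the same direction and side of the threshold. For a number of genes called it meant an equal or similar number. Such numbers are among the values, and for every diet comparison they were 0. No exact permutation test of AvBD9 changed direction or call. With the replicate block, 0 genes were called and 320, 661 and 338 genes had an unadjusted p below 0.05 at 1.8, 9 and 18 g/kg, and for AvBD9 it changed no call. Of 32 libraries, 6 correlated best with one of their own number, which does not settle whether the numbers pair libraries. The HINTW difference of AvBD13 was −0.0584 with the replicate block.

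With a pseudocount of 0.1, the difference from control was −0.0365 for AvBD6 at 1.8 g/kg and 0.24 for AvBD4 at 18 g/kg. With HINTW level as a covariate it was 0.0062 for AvBD4 at 18 g/kg, and the trend of AvBD7 was 0.00043. With median-ratio scaling AvBD7 at 18 g/kg was −0.0077. With dose as a rank the trend was 0.00019 for AvBD4 and 0.019 for AvBD7. The cause was not tested.

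As single libraries were left out, differences that changed sign ran as follows. At 1.8 g/kg AvBD4 ran from −0.11 to 0.40 and AvBD8 from −0.16 to 0.0433. At 9 g/kg AvBD4 ran from −0.23 to 0.67. At 18 g/kg AvBD1 ran from −0.30 to 0.65, AvBD4 from −0.21 to 0.21, AvBD6 from −0.11 to 0.37, AvBD7 from −0.53 to 0.46, AvBD8 from −0.0365 to 0.17 and AvBD10 from −0.28 to 0.036. AvBD9 between 18 and 9 g/kg ran from −0.18 to 0.23. Trends per g/kg ran from −0.018 to 0.021 for AvBD1, −0.0096 to 0.0049 for AvBD4, −0.0066 to 0.016 for AvBD6, −0.029 to 0.017 for AvBD7, −0.00073 to 0.0073 for AvBD8 and −0.00045 to 0.016 for AvBD10. The cause was not tested. At 18 g/kg the lowest values of AvBD1, AvBD6, AvBD7 and AvBD8 came without control replicate 8, and the highest values of AvBD4 at every level without control replicate 7.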
